A study of Mus musculus with 2 samples.

Results

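The MAP kinase phosphatases are the 10 catalytically active members of the DUSP family that bind MAP kinases, and they were taken from a list of gene symbols: Dusp1, Dusp2, Dusp4, Dusp5, Dusp6, Dusp7, Dusp8, Dusp9, Dusp10 and Dusp16. They are 10 of the 16174 genes listed in at least 1 of the 2 libraries of the series, and all 10 were listed in both. The list was selected with the FPKM values of these libraries in view, so the differences between the libraries are given as descriptions. Polyadenylated RNA was sequenced from the brown fat, a depot that produces heat, of female C57BL/6 mice aged 45 weeks and fed chow. The D3BKO genotype was D3Bfl/fl-UCP1-Cre+/-, with floxed D3B alleles and a Cre under Ucp1 control, which directs it to brown adipocytes. The D3BWT genotype was D3Bfl/fl, with the same floxed alleles and no Cre named in the label. D3B is read as Dnmt3b, a DNA methyltransferase, and the number of mice in a library is not given.

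With 1 library per genotype there is no replicate and no test between genotypes. Each ratio is D3BKO over D3BWT, and its interval, given in words or in parentheses, is a 95% interval for counting error only, which treats every read as an independent molecule and may be too narrow for reads copied by PCR. The D3BKO library held 10068359 expected counts and was run on lane 1, and the D3BWT library held 9666528 and was run on lane 2, so genotype, Cre and lane cannot be told apart. Dnmt3b was at 0.18 FPKM in the D3BKO library, from 7 counts, and 0.39 FPKM in the D3BWT library, from 15, and its ratio was 0.462 (0.159 to 1.20). Ucp1, the uncoupling protein that defines brown adipocytes, was at 4271 FPKM in the D3BKO library and 4987 FPKM in the D3BWT library, so the defining transcript of the labelled tissue was abundant in both.

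MAP kinases are switched on when a threonine and a tyrosine in their activation loop are phosphorylated, and these phosphatases remove both phosphates. Each joins a catalytic domain to a docking domain that selects among ERK, JNK and p38. Several are made in response to the kinases they switch off and so act as feedback brakes. In brown fat, p38 lies downstream of noradrenaline and cyclic AMP and promotes the transcription of Ucp1 and Ppargc1a, while ERK and JNK carry growth factor and stress signals.

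A gene was tested if it reached 1 FPKM in at least 1 library, which 8 of the 10 members did. Of these, 5 were lower in the D3BKO library: Dusp1, Dusp4, Dusp5, Dusp6 and Dusp10, at 0.128 to 0.544 of their D3BWT level. The other 3, Dusp7, Dusp8 and Dusp16, had ratios of 0.925 to 1.16. The intervals of these groups did not overlap, with 0.605 as the highest upper bound among the 5 and 0.721 as the lowest lower bound among the 3. The groups were formed from these same ratios, so the gap between them is a description and nothing is read from it. No tested member was at least 1.5-fold higher. Across all 11746 tested genes, 3.42% were at least 1.5-fold lower on the log2(FPKM + 1) scale with an interval that left out 1, and 4.35% were higher by the same rule. At 2-fold, 2 members were lower, Dusp4 and Dusp5, where 0.673% of tested genes were lower and 0.902% higher. These shares stand beside the counts as background, and since the list was selected on this comparison nothing is read from them. Bulk RNA cannot tell fewer cells of a type from less RNA per cell.

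**Figure D1:**
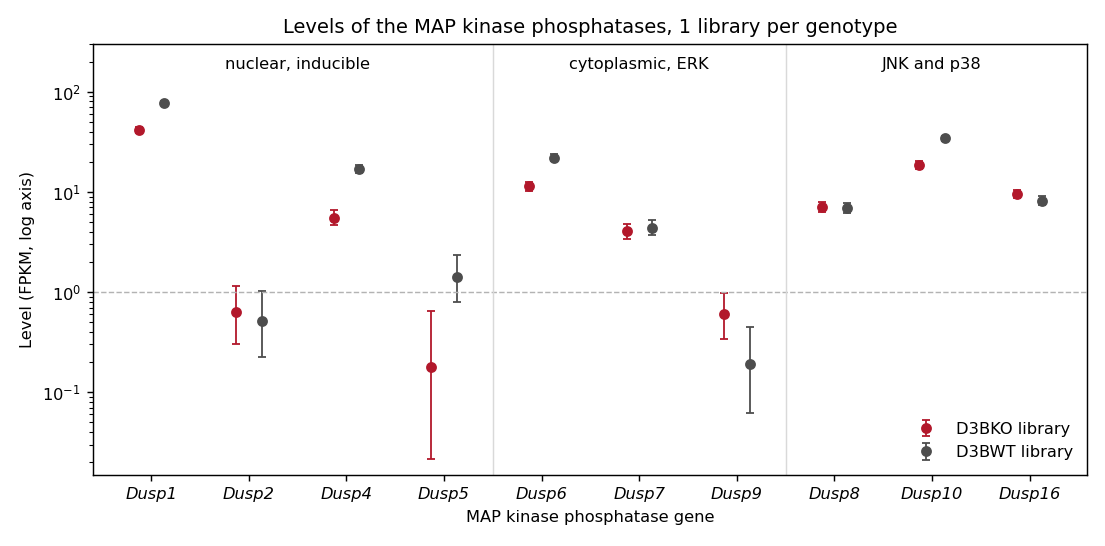
Level of each phosphatase gene in FPKM on a log axis, in the D3BKO library (red, left of each pair) and the D3BWT library (grey, right), with 95% counting intervals as bars and a dashed line at 1 FPKM. Dusp1 is the most abundant member in both libraries. Dusp1, Dusp4, Dusp5, Dusp6 and Dusp10, grouped by these same values, have D3BKO intervals that lie below the D3BWT ones.

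The promoters of Dusp1, Dusp5 and Dusp8 are shown because they hold matches to the elements through which cyclic AMP and serum act on such genes. A cyclic AMP response element (CRE) is bound by CREB, and a CArG box is bound by serum response factor. RefSeq promoter sequences of build GRCm38.p6, from 250 bases before the start site to 50 bases after it, matched 8 of the 10 members, all but Dusp4 and Dusp9. The letters searched on both strands were TGACG for the CRE half-site, TGACGTCA for the full CRE, TGANTCA for the AP-1 site and TATAAA for the TATA box, and the CArG box was searched by its usual pattern. A full CRE holds an overlapping half-site on each strand, and a half-site on the other strand reads CGTCA. Capitals mark the matches. The Dusp1 window lies on the minus strand at chr17:26508423-26508722, the Dusp5 window on the plus strand at chr19:53528895-53529194 and the Dusp8 window on the minus strand at chr7:142095235-142095534.
Dusp1: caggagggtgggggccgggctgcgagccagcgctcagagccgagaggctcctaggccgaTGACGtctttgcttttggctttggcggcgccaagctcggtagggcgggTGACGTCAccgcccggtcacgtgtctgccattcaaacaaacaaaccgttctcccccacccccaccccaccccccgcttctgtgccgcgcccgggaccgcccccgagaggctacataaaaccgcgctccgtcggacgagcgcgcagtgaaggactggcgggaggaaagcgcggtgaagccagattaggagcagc
Dusp5: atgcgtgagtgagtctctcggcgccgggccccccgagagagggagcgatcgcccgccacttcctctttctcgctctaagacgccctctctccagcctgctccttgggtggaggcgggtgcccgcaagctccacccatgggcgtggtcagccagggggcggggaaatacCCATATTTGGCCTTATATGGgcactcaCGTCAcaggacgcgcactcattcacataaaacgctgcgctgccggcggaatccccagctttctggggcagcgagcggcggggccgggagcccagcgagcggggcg
Dusp8: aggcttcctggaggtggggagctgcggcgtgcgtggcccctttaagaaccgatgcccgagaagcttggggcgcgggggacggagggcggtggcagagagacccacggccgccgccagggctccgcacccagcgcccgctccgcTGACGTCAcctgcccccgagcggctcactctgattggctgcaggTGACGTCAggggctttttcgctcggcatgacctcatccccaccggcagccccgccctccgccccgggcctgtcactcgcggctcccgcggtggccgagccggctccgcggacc

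Dusp1 had a full CRE whose first base lay at position -143 from the start site and a separate half-site at -191. Dusp8 had 2 full CREs, at -107 and -63. The full CRE was found in 1.79% of all 32851 promoters of the table and in 2.94% of the 11924 promoters of tested genes. Of these 2 genes with a full CRE, Dusp1 was lower in the D3BKO library and Dusp8 was not. Dusp5 had CArG boxes at -82 and -72 and a half-site at -55, where 1.63% of all promoters and 1.31% of those of tested genes held a CArG box. A CRE half-site was in 20.8% of all promoters and 30.8% of those of tested genes. Dusp2 and Dusp16 each had a half-site alone, at 5 and -70. The windows of Dusp6, Dusp7 and Dusp10 held none of these letters. No member window held an AP-1 site or a TATA box as spelled, where 7.81% of all promoters and 5.32% of those of tested genes held the AP-1 site. The TATA box was in 13.6% of all promoters and 7.22% of those of tested genes. CpG pairs, the sites of DNA methylation, numbered 31 in the window of Dusp1, 28 in that of Dusp5 and 34 in that of Dusp8. Over the 8 windows they ran from 19 in Dusp6 to 41 in Dusp7, against a median of 20 in promoters of tested genes. Methylation was not measured in these files.

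**Figure D2:**
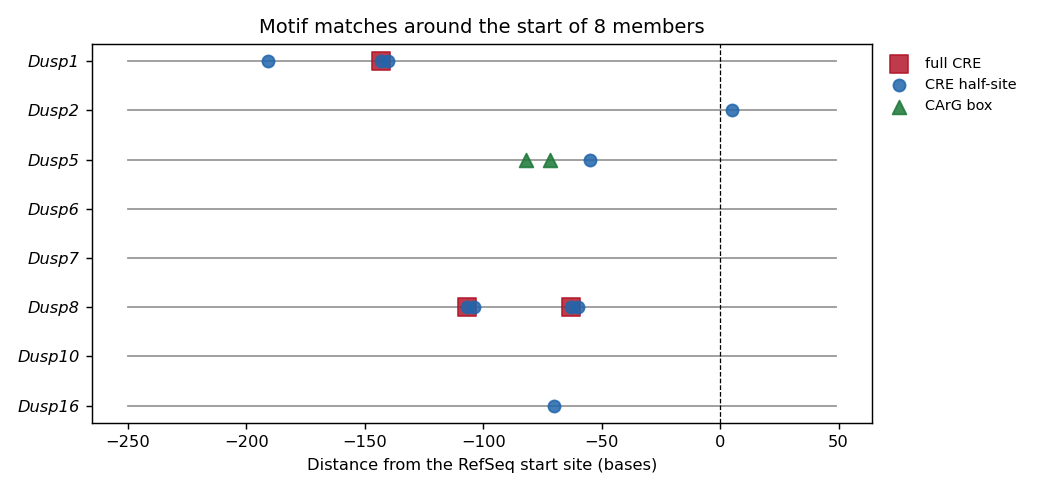
Matches to the full CRE (red squares), the CRE half-site (blue circles) and the CArG box (green triangles) in 8 members, placed by the distance of their first base from the RefSeq start site (dashed line) in bases. Full CREs stand in Dusp1 and Dusp8, and the pair of CArG boxes stands in Dusp5.

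The nuclear, inducible members are the products of immediate early genes. Dusp1, Entrez 19252, encodes MKP-1, which acts on p38, JNK and ERK and is also induced by glucocorticoids. It was at 41.9 FPKM in the D3BKO library, from 802 expected counts, and 77.0 FPKM in the D3BWT library, from 1417. The ratio of 0.544 had an interval of 0.498 to 0.593, and 132 of the 11746 tested genes had a lower log2 ratio. Dusp1 was the most abundant member and made up 42.1% of the summed FPKM of the 10 members in the D3BKO library and 44.9% in the D3BWT library. Ergic1 lies on the opposite strand and shares 11 exonic bases with Dusp1 in GENCODE M21, and whether any reads were shared was not tested. Ergic1, a gene of transport between the endoplasmic reticulum and the Golgi, was at 65.55 FPKM in the D3BKO library and 57.1 FPKM in the D3BWT library.

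Dusp4, Entrez 319520, encodes MKP-2, a nuclear phosphatase of ERK and JNK. It was at 5.55 FPKM in the D3BKO library, from 133 expected counts, and 16.95 FPKM in the D3BWT library, from 390. The ratio of 0.327, with an interval of 0.267 to 0.400, was the lowest of any member other than Dusp5. On the log2(FPKM + 1) scale the ratio of Dusp4 was -1.45, and 19 tested genes had a lower one. Its place among the members also differed, since it was the sixth by level in the D3BKO library and the fourth in the D3BWT library.

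Dusp5, Entrez 240672, encodes a nuclear phosphatase that is specific for ERK. It was at 0.18 FPKM in the D3BKO library and 1.41 FPKM in the D3BWT library. These levels rest on 2 expected counts in the D3BKO library and 15 in the D3BWT library, so the ratio of 0.128 had a wide interval of 0.0142 to 0.549. On the log2(FPKM + 1) scale Dusp5 stood just past 2-fold, at -1.03, with Dusp6 next inside it at -0.89. It was at -0.95 with the trend with transcript length removed and at -0.31 with a pseudocount of 5 FPKM, no longer past 2-fold. Dusp5 passed the filter through its D3BWT level alone, so a difference was built into its being tested. The gene model of the files had 1155 bases, which equals the coding length of Dusp5 in GENCODE M21, where the transcript has 2473 bases and a 3' untranslated region of 1109. An annotated antisense gene that is not listed in the files shares 547 exonic bases with it.

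Dusp2, Entrez 13537, encodes PAC-1, a phosphatase known from activated lymphocytes and other leukocytes. It was at 0.63 FPKM in the D3BKO library, from 10 expected counts, and 0.52 FPKM in the D3BWT library, from 8, below the filter in both. With a ratio of 1.21 (0.431 to 3.53), no difference was detectable at this depth. Lymphocyte markers were also near the limit, with none of 8 at 1 FPKM, a sum of 1.88 FPKM in the D3BKO library and 2.90 FPKM in the D3BWT library, and Cd3e of T cells listed at 0 in the D3BKO library.

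The cytoplasmic members act on ERK. Dusp6, Entrez 67603, encodes MKP-3, which is transcribed in response to ERK and holds ERK in the cytoplasm. It was at 11.4 FPKM in the D3BKO library, from 317 expected counts, and 21.9 FPKM in the D3BWT library, from 587. The ratio was 0.519 with an interval of 0.451 to 0.596, close to that of Dusp1. Dusp7, Entrez 235584, another cytoplasmic ERK phosphatase, was at 4.06 FPKM in the D3BKO library, from 130 expected counts, and 4.39 FPKM in the D3BWT library, from 135. Its ratio was 0.925, and the interval of 0.721 to 1.19 included 1 and lay above that of Dusp6. Dusp9, Entrez 75590, which encodes the ERK phosphatase MKP-4, was at 0.60 FPKM in the D3BKO library and 0.19 FPKM in the D3BWT library. This was the largest ratio of any member, 3.16 with an interval of 1.11 to 11.0, but it rests on 16 expected counts in the D3BKO library and 5 in the D3BWT library, and Dusp9 was under the filter in both libraries.

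The members that prefer JNK and p38 were divided. Dusp10, Entrez 63953, encodes MKP-5, a phosphatase of JNK and p38, and it was the second most abundant member in both libraries, at 18.5 FPKM in the D3BKO library and 34.2 FPKM in the D3BWT library. With 497 expected counts in the D3BKO library and 882 in the D3BWT library, its ratio was 0.541 with an interval of 0.484 to 0.605. Dusp10 was the member closest to the 1.5-fold limit among those past it, at a log2 ratio of -0.85, and Dusp7 was the next member inside it, at -0.09. Dusp8, Entrez 18218, encodes a phosphatase of JNK and p38. It was at 7.06 FPKM in the D3BKO library, from 341 expected counts, and 6.89 FPKM in the D3BWT library, from 320, a ratio of 1.02 (0.877 to 1.20). Dusp16, Entrez 70686, which encodes a JNK phosphatase named MKP-7, was at 9.54 FPKM in the D3BKO library, from 464 expected counts, and 8.21 FPKM in the D3BWT library, from 378. Its ratio of 1.16, with an interval of 1.01 to 1.33, was the highest among the 8 tested members. Dusp16 is the member with 2 transcripts in the files, and its deposited length was 4868 bases in the D3BKO library and 4798 bases in the D3BWT library.

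**Figure D3:**
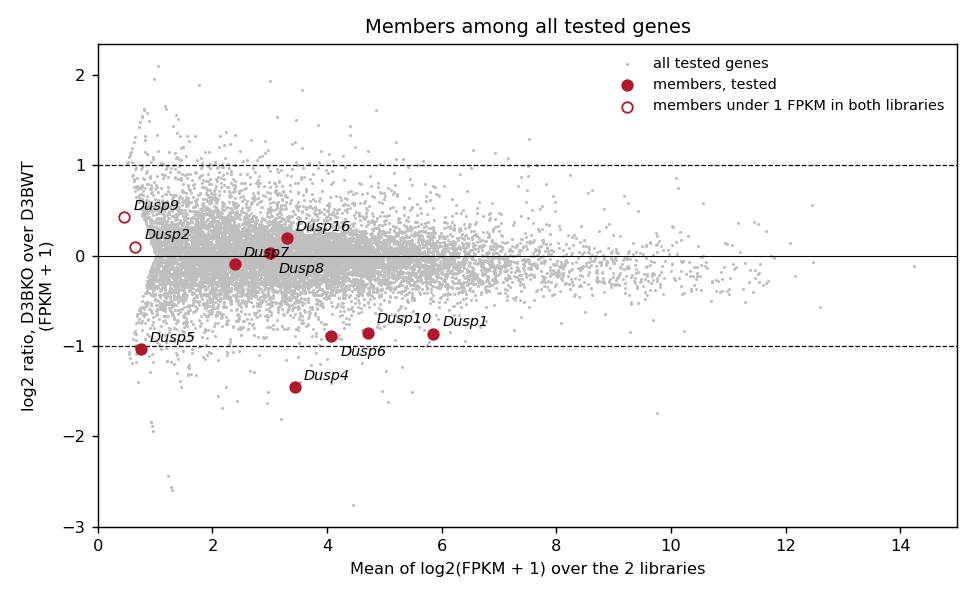
The log2 ratio of D3BKO over D3BWT on the FPKM + 1 scale, against the mean log2(FPKM + 1) of both libraries, for the 11746 tested genes (grey) and the members (red, filled where tested and open where under 1 FPKM in both libraries), with dashed lines at 2-fold. Dusp1, Dusp6 and Dusp10 lie together just inside the lower line and Dusp4 lies below it.

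In the D3BKO library the order of levels from high to low was Dusp1, Dusp10, Dusp6, Dusp16, Dusp8, Dusp4, Dusp7, Dusp2, Dusp9 and Dusp5. Each member down to Dusp7 differed from the next beyond counting error, while Dusp2 and Dusp9, and Dusp9 and Dusp5, did not. In the D3BWT library the order was Dusp1, Dusp10, Dusp6, Dusp4, Dusp16, Dusp8, Dusp7, Dusp5, Dusp2 and Dusp9, and of these neighbours Dusp2 and Dusp9 did not differ beyond counting error. Dusp1 stood above 88.3% of the listed genes in the D3BKO library and above 93.0% in the D3BWT library. Summed over the 10 members, the level was 99.4 FPKM in the D3BKO library and 172 FPKM in the D3BWT library. The nuclear members summed to 48.25 FPKM in the D3BKO library and 95.9 FPKM in the D3BWT library (ratio 0.503), the cytoplasmic ERK members to 16.0 FPKM in the D3BKO library and 26.5 FPKM in the D3BWT library (ratio 0.605), and the members of JNK and p38 to 35.1 FPKM in the D3BKO library and 49.3 FPKM in the D3BWT library (ratio 0.712). The nuclear members contributed 48.5% of the family sum in the D3BKO library and 55.8% in the D3BWT library. The members of JNK and p38, lower in sum, contributed 35.3% in the D3BKO library and 28.7% in the D3BWT library.

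Of the kinases that these phosphatases act on, Mapk3, which encodes ERK1, was at 64.0 FPKM in the D3BKO library and 59.2 FPKM in the D3BWT library, a ratio of 1.08 (0.990 to 1.18). Mapk14, the gene of p38 alpha, was at 23.45 FPKM in the D3BKO library and 23.9 FPKM in the D3BWT library, a ratio of 0.981 (0.888 to 1.08). The JNK gene Mapk8 had a ratio of 1.18 (0.965 to 1.45) and the JNK gene Mapk9 one of 1.02 (0.910 to 1.14). The intervals of these 4 kinase genes included 1 and lay above those of the 5 lower phosphatases. These are RNA levels per length, and protein and phosphorylation were not measured.

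The cascades that lead to the kinases had list medians between -0.08 and 0.11, beside a median log2 ratio of -0.03 over all tested genes. Of all 11746 tested genes, 5393 were above 0 and 6316 below, and 0.902% were past 2-fold higher. The core ERK cascade, from the adaptor Grb2 to ERK, had a median of 0.11 over 15 tested genes, of which 10 were above and 5 below 0, and none was past 1.5-fold. Its furthest members were Map2k1, the kinase that activates ERK, with an FPKM ratio of 1.25 (1.11 to 1.40), and the GTPase genes Nras with 1.21 (1.05 to 1.40) and Hras with 0.849 (0.749 to 0.963). The core JNK cascade had a median of -0.08 over 11 tested genes, with 3 above 0, 8 below and none past 1.5-fold. Its furthest member was Map3k1, a kinase at the head of the cascade, with a ratio of 0.745 (0.631 to 0.878). The core p38 cascade had a median of -0.01 over 12 tested genes, with 6 above and 6 below 0. Mapk13, 1 of those above 0, reached 1 FPKM in the D3BKO library alone, so its sign was built into its being tested. Map3k6, a stress-activated kinase that partners ASK1, was past 2-fold, at 14.7 FPKM in the D3BKO library and 6.65 FPKM in the D3BWT library, a ratio of 2.21 (1.92 to 2.56). Tab1, an adaptor of the kinase TAK1, was at 3.92 FPKM in the D3BKO library and 7.39 FPKM in the D3BWT library, a ratio of 0.530 (0.420 to 0.668).

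Receptors that feed the ERK cascade went in both directions. Of 16 tested receptor tyrosine kinases, 8 were above and 8 below 0, with a median log2 ratio of 0.00. Igf1r, 1 of those below 0, reached 1 FPKM in the D3BWT library alone, so its sign was built into its being tested. None was past 2-fold on the log2(FPKM + 1) scale, where 2 were past 1.5-fold higher and 1 lower. The shares of all tested genes past 1.5-fold were 4.35% higher and 3.42% lower. Egfr, the epidermal growth factor receptor, was at 3.68 FPKM in the D3BKO library and 1.67 FPKM in the D3BWT library, a ratio of 2.20 (1.69 to 2.90). Kdr, the VEGF receptor of endothelium, was at 14.95 FPKM in the D3BKO library and 23.4 FPKM in the D3BWT library, a ratio of 0.639 (0.584 to 0.699). Csf1r, the receptor of macrophage growth factor, had a ratio of 1.58 (1.39 to 1.79). Kdr and Csf1r are also markers of endothelial cells and of macrophages.

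Other feedback inhibitors of the pathway stood on both sides. Among 8 tested genes of the Sprouty and Spred list, 5 were above and 3 below 0, with a median of 0.09 and a mean of -0.07. The Sprouty genes encode inhibitors that act between growth factor receptors and ERK. Spry4 was at 2.89 FPKM in the D3BKO library and 5.72 FPKM in the D3BWT library, a ratio of 0.505 (0.406 to 0.626). Spry2 was at 0.537 of its D3BWT level (0.359 to 0.794). Errfi1, an inhibitor of the epidermal growth factor receptor, was at 0.614 (0.530 to 0.712). Spry1 stood on the other side, at 7.85 FPKM in the D3BKO library and 4.45 FPKM in the D3BWT library, a ratio of 1.76 (1.38 to 2.26). All 4 were past 1.5-fold and inside 2-fold. Among all tested genes, 3.42% were past 1.5-fold lower and 4.35% higher.

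**Figure D4:**
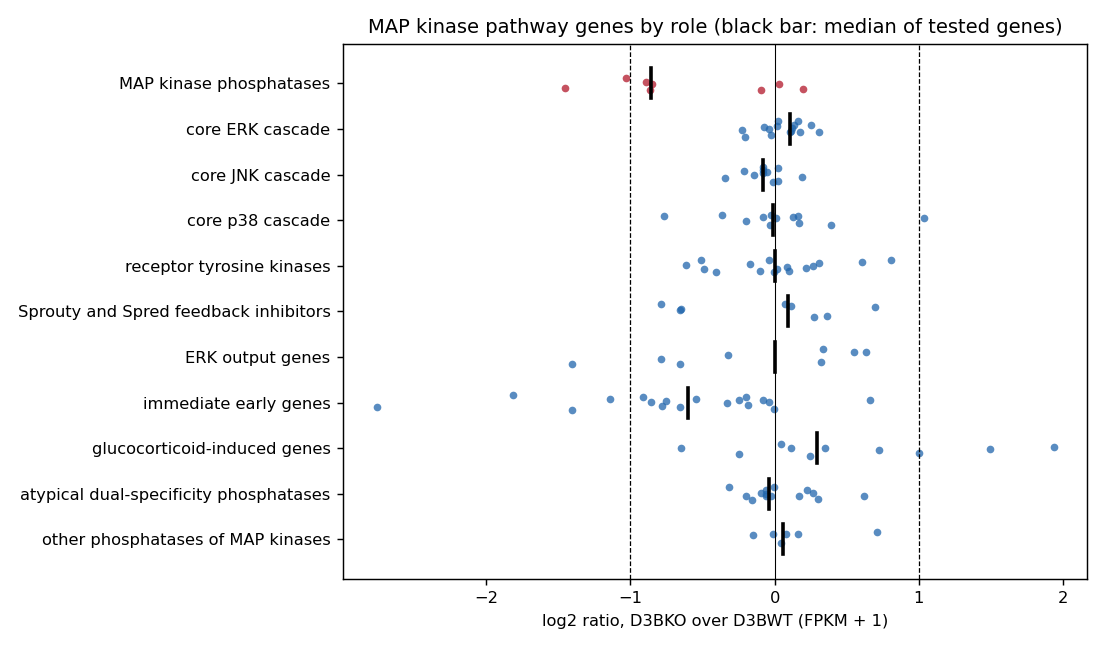
The log2 ratio of D3BKO over D3BWT on the FPKM + 1 scale for each tested gene of the phosphatase family (red) and of 10 lists (blue), with the median of each as a black bar and dashed lines at 2-fold. The phosphatases split into a lower group of 5 and a group of 3 near 0, and the immediate early genes have a median of -0.60.

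Genes that ERK is known to induce, other than the phosphatases, were divided too. Of 8 tested genes on this list, 4 were above and 4 below 0, and the median was 0.00 with a mean of -0.17. Etv5, 1 of the 4 above 0, reached 1 FPKM in the D3BKO library alone, so its sign was built into its being tested. Ier3, an immediate early gene of stress and survival, was past 2-fold, at 9.30 FPKM in the D3BKO library and 26.2 FPKM in the D3BWT library. Ccnd1, the gene of cyclin D1, was at 8.92 FPKM in the D3BKO library and 5.40 FPKM in the D3BWT library, a ratio of 1.65 (1.38 to 1.98). Spry2 and Spry4 belong to this list as well. The wider list of immediate early genes had 17 of 18 tested genes below 0 and a median of -0.60, with Nr4a1, Egr1, Ier3 and Ier2 past 2-fold. Over all tested genes, 6316 of 11746 were below 0 and 0.673% were past 2-fold lower. Fosb and Egr2 reached 1 FPKM in the D3BWT library alone, so a ratio below 0 was built into their being tested. Nr4a1, an orphan nuclear receptor gene, had a ratio of 0.133 and Egr1, a zinc finger factor of the serum response, one of 0.240. Ier2 was at 9.81 FPKM in the D3BKO library and 22.9 FPKM in the D3BWT library, and Maff, a small bZIP factor, was the member above 0, with a ratio of 1.67 (1.32 to 2.13).

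Of 10 tested genes on a list of other glucocorticoid-induced genes, 8 were above and 2 below 0, with a median of 0.30. Fkbp5, Zbtb16 and Tsc22d3 were past 2-fold higher. Beside this, 5393 of all 11746 tested genes were above 0 and 0.902% were past 2-fold higher. Fkbp5, which encodes a chaperone of the glucocorticoid receptor, had a ratio of 4.73 (3.87 to 5.83), and Zbtb16, a zinc finger transcription factor gene, one of 3.15 (2.75 to 3.62). Tsc22d3, which encodes the anti-inflammatory protein GILZ, was at 67.2 FPKM in the D3BKO library and 33.1 FPKM in the D3BWT library, a ratio of 2.03 (1.85 to 2.24). Errfi1 and Sgk1, a kinase gene with a ratio of 0.840 (0.764 to 0.924), were the members below 0.

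No tested related phosphatase was past 1.5-fold lower on the log2(FPKM + 1) scale with an interval that left out 1. By this rule 3.42% of all tested genes were lower and 4.35% higher, so nothing is read from the absence in lists this short. Of 14 tested atypical dual-specificity phosphatases, which have the catalytic fold without the MAP kinase docking domain, 5 were above and 9 below 0, and the median was -0.04. Dusp14 was past 1.5-fold, at 1.57 FPKM in the D3BKO library, from 22 counts, and 0.67 FPKM in the D3BWT library, from 9, a ratio of 2.34 (1.04 to 5.78). Dusp15 was at 0.65 FPKM in the D3BKO library and 1.05 FPKM in the D3BWT library. Its FPKM ratio of 0.619 had an interval of 0.286 to 1.26, which included 1. Dusp14 and Dusp15 each passed the filter through 1 library alone, so a difference was built into their being tested. Dusp3 was at 60.0 FPKM in the D3BKO library and 48.5 FPKM in the D3BWT library, a ratio of 1.24 (1.17 to 1.31). Dusp21 and Styxl1 were listed in neither library. The other phosphatases known to act on MAP kinases had a median of 0.06 over 6 tested genes, 4 above and 2 below 0. Ptpn7, a leukocyte phosphatase, had a ratio of 4.55 (1.95 to 12.1). It was at 1 FPKM in the D3BKO library and 0.22 FPKM in the D3BWT library. It thus passed the filter through the D3BKO library alone, so a log2 ratio above 0 was built into its being tested. Its counts were 32.4 in the D3BKO library and 7 in the D3BWT library. The count in the D3BKO library is not whole, so it includes reads divided among genes.

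The 3' untranslated regions were searched for ATTTA, the core of the AU-rich elements that shorten the life of many immediate early transcripts. In GENCODE M21 transcripts paired with the files' RefSeq identifiers, Dusp1 had 4 copies in 690 bases and Dusp2 had 4 copies in 581 bases. This is 5.80 and 6.88 copies per kilobase, above 95.8% and 97.4% of the 11180 tested genes with such a region, whose median was 1.27. Both regions were shorter than the median of 1034 bases. By number of copies, Dusp1 and Dusp2 were each above 72.8% of these genes, and Dusp8, with 5 copies, was above 79.4%. Dusp10 had 2.70 per kilobase and Dusp4 had 1.80, while Dusp5 and Dusp6 had 0.902 and 0.841, below the median. Among the members that were near their D3BWT level, Dusp8 had 2.11 per kilobase, Dusp16 had 1.24 and Dusp7 had none. The longer form TATTTAT occurred 3 times in Dusp1, 2 times in Dusp8 and once in Dusp2, and in 28.5% of the tested genes.

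Markers of the cell types in the tissue differed as well, beside 5393 of all 11746 tested genes above 0 and 6316 below. Endothelial markers summed to 132 FPKM in the D3BKO library and 191 FPKM in the D3BWT library, with 5 of 6 below 0. Brown adipocyte markers summed to 14709 FPKM in the D3BKO library and 18876 FPKM in the D3BWT library, with 7 of 8 below 0, while general adipocyte markers had 2 of 4 below 0. Macrophage markers summed to 62.0 FPKM in the D3BKO library and 35.7 FPKM in the D3BWT library, with 5 of 5 above 0. Fibroblast markers summed to 283 FPKM in the D3BKO library and 209 FPKM in the D3BWT library, with 4 of 4 above 0. Of the smooth muscle markers 3 of 3 tested were above 0, summing to 45.8 FPKM in the D3BKO library and 28.3 FPKM in the D3BWT library. Neutrophil markers, 2 of 2 tested above 0, summed to 13.7 FPKM in the D3BKO library and 5.67 FPKM in the D3BWT library. Most of this came from S100a8, with 33 counts in the D3BKO library and 13 in the D3BWT library. Schwann cell markers, 1 of 2 above 0, summed to 14.7 FPKM in the D3BKO library and 15.5 FPKM in the D3BWT library. Skeletal muscle markers summed to 2.99 FPKM in the D3BKO library and 2.20 FPKM in the D3BWT library. Acta1, the 1 of them tested, was at 2.71 FPKM in the D3BKO library and 1.38 FPKM in the D3BWT library. Ckm was listed in neither library. Myh1 and Myh4 were listed at 0 in the D3BKO library and had 2 and 3 counts in the D3BWT library. The part of these shifts in the phosphatase levels was not tested.

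**Figure D5:**
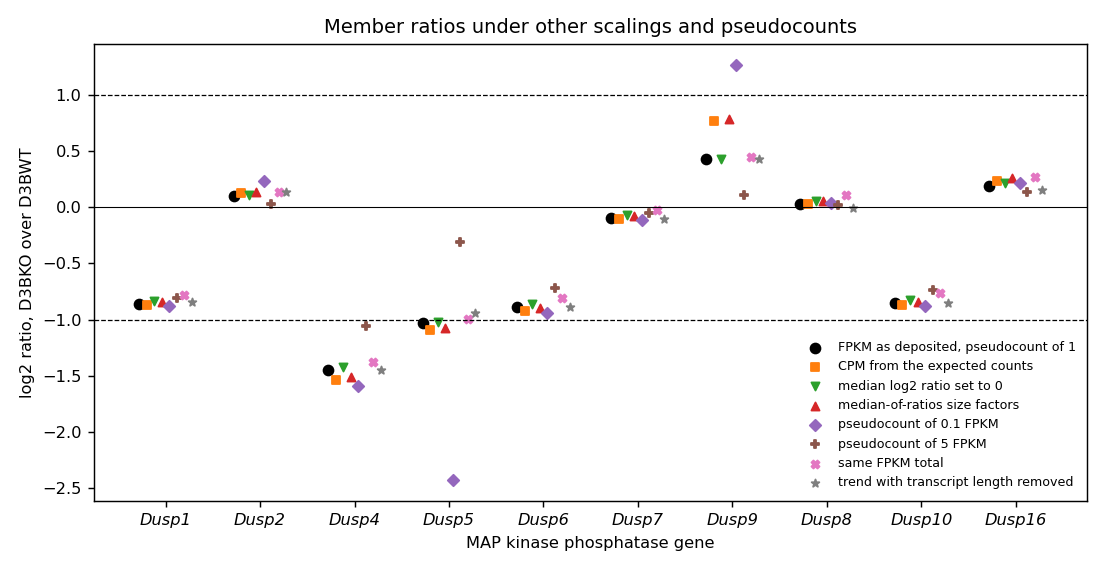
The log2 ratio of D3BKO over D3BWT for each member as deposited (black circles) and under 7 other scalings and pseudocounts, with dashed lines at 2-fold. The ratios of Dusp1, Dusp4, Dusp5, Dusp6 and Dusp10 lie below 0 under every setting shown, a sign that a pseudocount cannot change. Those of the low-count genes Dusp5 and Dusp9 move most with the pseudocount.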

How the data were processed

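Polyadenylated RNA was made into libraries, 1 per genotype, per the labels' protocols, which do not mention strand. The authors deposited, per the file headers, an expected count, an FPKM value and a transcript length for each gene with a value. The submitters' processing notes name RSEM and build mm9, and for the aligner the sources used here give no name. An expected count divides reads shared by several genes, so it need not be whole. All counts of the 10 members were whole to within 0.05. A gene not listed was set to 0. Entrez identifiers were matched to current symbols in a RefSeq table of GRCm38.p6 (16134 of 16174 genes). Members and list genes were looked up by current symbol first, and by synonym only where no current symbol matched. This order was used because the table gives Dusp4 as an older name of Dusp9.

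Genes that reached 1 FPKM in D3BKO, D3BWT or both were tested. A gene was past 2-fold when log2((FPKM + 1) in D3BKO / (FPKM + 1) in D3BWT) reached 1 or -1 and its interval left out 1. This scale understates differences of low genes, and the ratios in the text are of FPKM without pseudocount. Intervals of ratios are Clopper-Pearson intervals, exact and conditional on the sum of the rounded counts, and those in the plot of levels are exact Poisson intervals. A count of 3, which a count of 0 allows, was worth 0.298 CPM in the D3BKO library and 0.310 CPM in the D3BWT library. The method was tested on simulated data with counting error alone, in which only well-counted genes were changed. This could not check calls of low-count genes such as Dusp5, or variation between mice. The members and lists were chosen with earlier results of these data known. Genes named were the members, Dnmt3b, Ucp1, MAP kinase genes, and genes of each list other than the cell type markers. From these lists they were all genes past 2-fold or, in lists with none, up to 4 with the largest log2 ratios in either direction. Tab1, Ccnd1, Maff, Sgk1, Fosb, Egr2, Etv5, Igf1r, Myc, Ergic1, Dusp21 and Styxl1 fall outside this rule and were named after their values were seen. The same holds for the markers Cd3e, Ckm, Myh1, Myh4, Acta1 and S100a8. A gene that this rule names is not reported here. Alternatives were other pseudocounts, filters, folds and scalings and removal of a smooth trend with transcript length. Python 3.11.15, SciPy 1.17.1 and statsmodels 0.14.6 were used.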

Additional observations from a re-analysis of the deposited data

How the results depend on the processing

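No paired analysis was possible because each genotype has 1 library, and no replicate could be left out. Dusp1, Dusp4, Dusp5, Dusp6 and Dusp10 were below 0 under all 7 other scalings and pseudocounts. A pseudocount cannot change the sign of a ratio. Under the scalings the median over all tested genes stayed between -0.03 and 0.05, so these signs were nearly fixed beforehand. Dusp1 ran from -0.88 to -0.78, Dusp10 from -0.88 to -0.74, Dusp6 from -0.94 to -0.72, Dusp4 from -1.59 to -1.06 and Dusp5 from -2.43 to -0.31 on the log2 scale. Dusp8 was near 0 throughout and changed sign with the length trend removed, at -0.01. The 2 members past 2-fold became 5 at 1.5-fold and 0 at 4-fold. They became 1, Dusp4, with a pseudocount of 5 FPKM, a mean of at least 5 FPKM, libraries rescaled to the same FPKM total or the length trend removed. Dusp5, with 2 counts in the D3BKO library and 15 in the D3BWT library, is the member whose call depth limits most. Over all tested genes the 106 higher and 79 lower became 511 and 402 at 1.5-fold, 1 and 3 at 4-fold, 281 and 196 with a pseudocount of 0.1 FPKM, 15 and 14 with one of 5 FPKM, and 42 and 27 at a mean of at least 5 FPKM. The higher genes numbered 179 with CPM and 192 with median-of-ratios size factors, and no lower count moved by over 1.5 times there. The median of the immediate early genes was -0.265 with a pseudocount of 5 FPKM. The mean of the glucocorticoid-induced genes was 0.50, and the other list values stayed between the medians of their genes' lower and upper counting bounds. The median of the ERK output list was 0.32 over those of its genes that averaged 5 FPKM or more. These were only Ier3 at -1.40, Myc at 0.32 and Ccnd1 at 0.63, so that median was the value of Myc.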
